A study of Mus musculus with 16 samples.

Results

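The genes described here are 9 transcription factors and transcriptional co-activators, grouped as factors of inner ear development: Otx1 and Otx2, Tbx15 and Tbx18, Eya1 and Eya4, Gata3, Sox2 and Dlx5. Tbx15 is described below by its part in limb, skin and bone. All 9 were taken by name, and each was followed through every array probe whose only annotated symbol was that gene, which gave 16 probes for the 9 genes among 18193 genes with such a probe. Eya4 had 4 probes, Eya1 had 3, Tbx15 and Tbx18 had 2 each, and the other members had 1. Each probe pools several short oligonucleotides, and its value is the log2 of the hybridisation signal after normalisation between arrays.

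The study asked whether epigenetic pathways affect how hearing is kept, and used these arrays to look for genes that take part. Each array held the whole cochlea of male mice of the inbred strain DBA/2J, a strain that loses its hearing from a young age. Untreated mice of 4 weeks formed the first group (5 arrays). The control group was 5 mice aged 12 weeks that had been given the sodium bicarbonate vehicle under the skin for 8 weeks, and the M+V group was 6 mice of the same age that had been given L-methionine (MET, 500 mg/kg) together with valproic acid (VPA, 300 mg/kg) in that vehicle for those 8 weeks. MET supplies methyl groups, and VPA inhibits histone deacetylases. M+V against control therefore holds treatment at 1 age, whereas the comparisons with 4 weeks hold age and injections together.

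As background, the inner ear grows from a thickening of the head ectoderm, the otic placode, which folds into the otic vesicle. Eya1, a co-activator that works with sine oculis proteins, and Gata3 act from the placode onwards, while Otx and Dlx genes mark the lower and the upper side of the vesicle. Sox2 sets aside the sensory patches and remains on in supporting cells, and Tbx18 marks the mesenchyme that forms the fibrocytes of the spiral ligament. Loss of EYA4 or GATA3 function causes hearing loss in humans. Most of these genes are studied in the embryo, and no array here is younger than 4 weeks.

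The tissue label was checked against 20 genes typical of the cochlea, among them Coch, Otos and Tecta, of which 18 had a probe and 1 stayed under the array median in every array. The mean log2 level of that list ran from 9.64 to 10.3 at 4 weeks, from 9.57 to 9.97 in control and from 9.45 to 10.3 with M+V. Other tissue differed between arrays. Markers of cerebellar and brainstem neurons (18 genes) averaged 7.96 to 8.38 at 4 weeks, 8.00 to 9.39 in control and 7.71 to 8.75 with M+V, and those of skeletal muscle (12 genes, 1 at the lowest possible value in some array) averaged 5.69 to 9.13, 5.80 to 9.08 and 5.34 to 7.50. Markers of red blood cells (8 genes) averaged 10.3 or more at 4 weeks, 10.5 to 11.2 in control and 4.32 to 10.9 with M+V, with M+V replicate 1 alone at the lowest value. Markers of fat cells (9 genes) averaged 7.89 to 8.33, 7.93 to 8.46 and 7.45 to 8.57. The bioB hybridisation control, a bacterial transcript added to each sample, was at a high level (8.91 to 9.62) in all 5 arrays of 4 weeks, in control replicate 1 and in M+V replicates 1 and 2, and at a low level (5.73 to 6.08) in the other 8 arrays. Values within those levels are given for the 2 genes that passed the study's own cutoffs against control. In bulk tissue, fewer cells of a type and less RNA per cell cannot be told apart.

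In M+V against control, 2 of the 16 member probes passed the cutoffs of the study, more than 1.5-fold with p below 0.05 before adjustment: Otx1, which was higher, and the brighter Tbx15 probe, which was lower. Over all 45037 probes tested, 3.54% passed the same cutoffs. Tbx15 was also the only member whose M+V and control arrays did not overlap, which was so for 0.881% of all probes. After Benjamini-Hochberg adjustment in limma, 0 of the 16 member probes passed the threshold of 0.05, as did 0% of all probes, although 2 member probes and 3267 probes in all (7.25%) had an unadjusted p under it. By the methods' t-test with the same adjustment, 0 probes passed as well. The median log2 fold change of the 9 genes, each by its brightest probe, was 0.15, beside 0.01 for all probes, and 6 genes lay above 0 and 3 below.

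**Figure D1:**
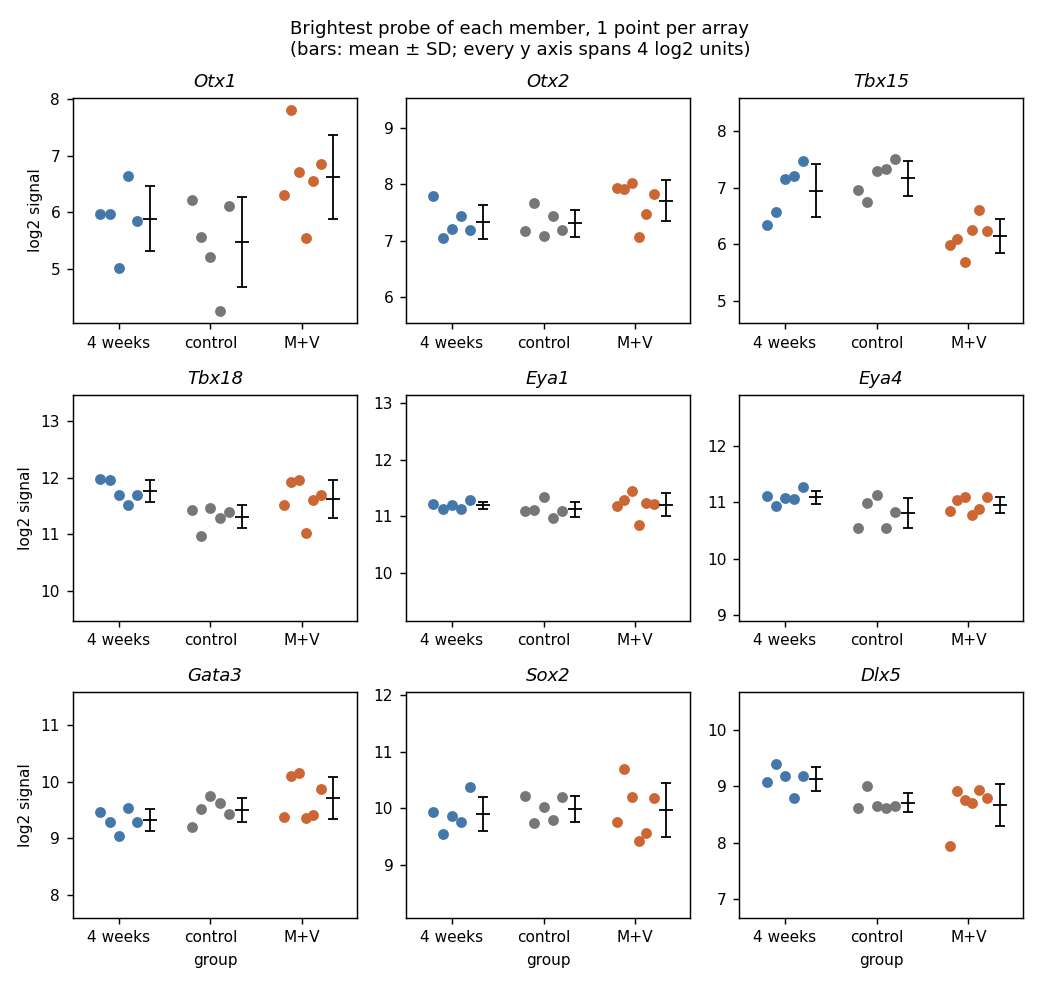
The log2 signal of the brightest probe of each of the 9 genes is plotted by group, with 1 point per array and the mean ± SD beside it (n = 5, 5 and 6); each y axis spans 4 log2 units around that gene's own values. The M+V arrays of Tbx15 lie at 5.68 to 6.61, all under the control arrays at 6.74 to 7.51, while those of Otx1 overlap the control arrays and Eya1 hardly spreads.

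Otx1, a homeobox factor needed for the lateral semicircular canal and for the shape of the cochlea, was a dim gene in these arrays. Its log2 level was 6.22, 5.56, 5.21, 4.25 and 6.11 in control replicates 1 to 5. In the M+V-treated cochleae it ran from 5.54 over a median of 6.63 to 7.81, and the cochleae at 4 weeks gave 5.96, 5.96, 5.02, 6.64 and 5.84. The groups overlapped: M+V replicate 4 was lower than 3 of the control arrays, whereas M+V replicate 2 stood above every other array. Only 1 of the 6 M+V arrays, and no array of the other groups, had Otx1 above the array's median probe. The log2 fold change of M+V against control was 1.16 (SE 0.41, unadjusted p = 0.0138, adjusted p = 0.682 from limma), and the exact permutation test over 462 splits of the arrays gave p = 0.0303, two-sided. Otx1 is among the genes that the study itself chose on these arrays, so this value is not independent evidence of its direction. The study also measured Otx1 by quantitative RT-PCR. There it named Zip4 and Hspa1b as significantly higher with M+V than in control, and did not name Otx1.

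Otx1 against 4 weeks was 0.75 higher with M+V in log2 units (SE 0.41, unadjusted p = 0.0918, adjusted p = 0.440) and lower in control (log2 fold change -0.41, SE 0.43, adjusted p = 0.828), neither past the cutoffs. The mean at 4 weeks lay between control and M+V, and neighbours in that order did not differ beyond their spread. With the bioB level as a block the order changed, to 1.25 for M+V against 4 weeks (unadjusted p = 0.0225), past the cutoffs, and 0.19 for control against 4 weeks (unadjusted p = 0.722). All arrays of 4 weeks had the high level, so this fit leans on the 1 control and 2 M+V arrays at that level. M+V replicate 2, the highest array for Otx1, is among them. Leaving out 1 array moved the M+V value between 0.51 (without M+V replicate 2) and 0.96 (without M+V replicate 4), and it passed the cutoffs in the latter case and without 4 weeks replicate 4 (0.93). Otx2, the sister gene, which is needed for the ventral otic vesicle, was 7.80, 7.05, 7.20, 7.43 and 7.18 at 4 weeks and 7.18, 7.67, 7.08, 7.44 and 7.19 in control. It ran from 7.07 over a median of 7.87 to 8.03 with M+V, so that all but M+V replicates 4 and 5 stood above every control array. Otx2 differed by 0.40 in log2 fold from control (SE 0.19, unadjusted p = 0.0507, adjusted p = 0.691), by 0.38 from 4 weeks (adjusted p = 0.385) and by -0.02 for control against 4 weeks (adjusted p = 0.989). M+V replicate 4 had the lowest value of its group in both Otx genes, and in 7 of the 9 members by their brightest probes, all but Tbx15 and Dlx5.

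Tbx15, a T-box factor known for limb and skin patterning and for bone growth, had the lowest log2 fold change of M+V against control among the members. Its brighter probe (1418755_at) was 6.95, 6.74, 7.29, 7.34 and 7.51 in control replicates 1 to 5 and 6.34, 6.57, 7.15, 7.20 and 7.47 at 4 weeks. With M+V it ran from 5.68 over a median of 6.17 to 6.61. All 6 M+V arrays lay below all 5 control arrays, and 4 weeks replicates 1 and 2 reached into the M+V range. This probe was above the array's median probe in 4 control arrays, 3 arrays of 4 weeks and 0 M+V arrays. The log2 fold change against control was -1.02 (SE 0.22, unadjusted p = 0.00032, adjusted p = 0.676 from limma), 2.03-fold lower, and ranked 19 among the 45037 unadjusted p-values. The exact permutation test gave p = 0.00433, where the smallest value that 462 splits allow is 0.00216. Tbx15 too is in the study's own list from these arrays, so its direction is not supported independently here.

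Against 4 weeks, the same Tbx15 probe was at -0.80 with M+V (SE 0.22, unadjusted p = 0.00234, adjusted p = 0.108; exact permutation p = 0.0108), past the study's cutoffs, and at 0.22 in control (SE 0.23, adjusted p = 0.826). Control and 4 weeks thus did not differ beyond their spread. It was the only 1 of the 16 member probes past the cutoffs in M+V against 4 weeks, where 6.04% of all probes passed. A second Tbx15 probe (1422195_s_at) was dim, under the array median in every array. It was 1.72, 4.89, 3.69, 4.36 and 4.75 in control, 0.81, 2.95, 2.36, 4.72 and 3.64 at 4 weeks, and 3.19 to 4.31 with a median of 3.80 with M+V. Its log2 fold change was -0.17 against control (SE 0.64, adjusted p = 0.965) and 0.82 against 4 weeks (SE 0.64, adjusted p = 0.604), with overlapping groups in both.

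Both results were recomputed within the 2 levels of the bioB control. Among the 8 arrays with the low level, 4 of each group, Tbx15 was 6.19 with M+V and 7.22 in control, a difference of -1.02 with no overlap (exact permutation p = 0.0286, the smallest that 70 splits allow). The dim Tbx15 probe was 3.54 with M+V and 4.42 in control in these arrays, a difference of -0.89 with overlap (unadjusted p = 0.0168, adjusted p = 0.742 from limma), past the cutoffs here but not over all arrays. Otx1 was 6.41 and 5.28, a difference of 1.13 with overlap (exact permutation p = 0.0857). The arrays with the high level, 2 with M+V and 1 control, gave -0.91 for Tbx15 and 0.83 for Otx1, with no test. Both differences thus kept their direction at either level.

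**Figure D2:**
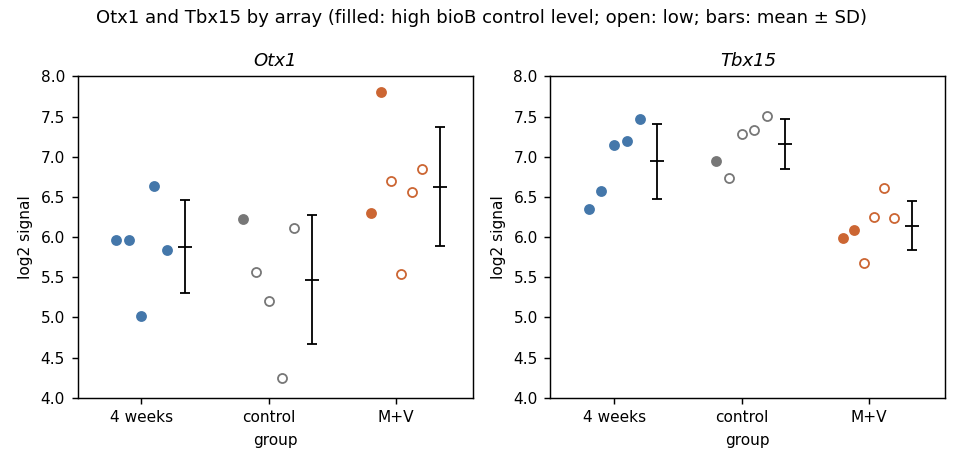
The log2 signal of Otx1 and of the brighter Tbx15 probe is plotted by array, with filled points for arrays with a high level of the bioB hybridisation control and open points for a low level; bars are the mean ± SD. Filled and open M+V points of Tbx15 both lie below the control points, and the highest Otx1 value, 7.81, is a filled M+V point.

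Markers of other tissues moved with M+V against control as well. Of the oligodendrocyte markers 13 of 14 were below 0 (median log2 fold change -0.48; list means 9.31 to 10.2 in control and 8.74 to 9.98 with M+V), as were 8 of 12 astrocyte markers (median -0.18; 10.2 to 10.9 and 10.1 to 10.9), 15 of 18 neuronal markers (median -0.40) and 12 of 12 skeletal muscle markers (median -1.02), and 1 to 4 genes of each of these lists passed the cutoffs. With the mean of the oligodendrocyte and astrocyte markers as a covariate, the log2 fold change was 1.37 for Otx1 and -1.15 for Tbx15. With the skeletal muscle mean as a covariate, it was 0.98 (unadjusted p = 0.0448) and -0.87. Both genes stayed past the study's cutoffs in either fit, and in all 16 fits that left out 1 array, between 0.85 and 1.37 for Otx1 and between -1.13 and -0.93 for Tbx15. The 5 fits without an array of 4 weeks cannot change these log2 fold changes, only their p.

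**Figure D3:**
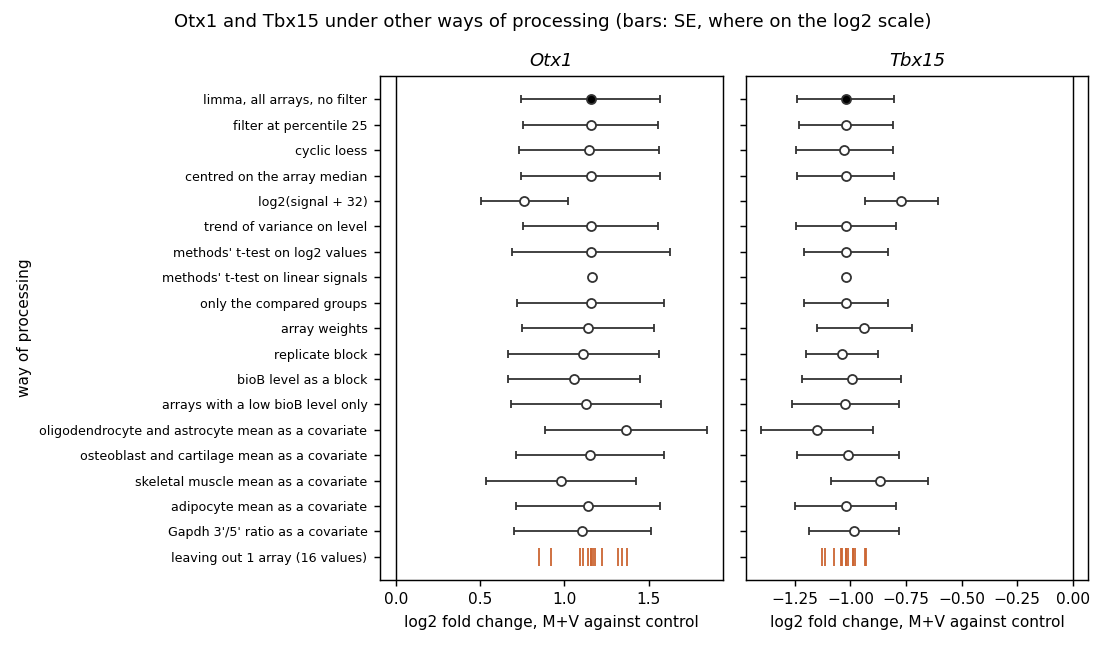
The log2 fold change of M+V against control is plotted for Otx1 and the brighter Tbx15 probe under each way of processing, with the reported value filled, bars for the SE, and 1 tick for each of the 16 fits that left out an array. The 5 fits without an array of 4 weeks cannot move their tick from the reported value. Every value lies above 0 for Otx1 and below 0 for Tbx15; both are nearest to 0 with log2(signal + 32), at 0.76 and -0.77.

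Tbx18, the T-box gene of the mesenchyme around the otic vesicle, is needed for the fibrocytes of the spiral ligament. It was 11.98, 11.96, 11.69, 11.52 and 11.69 at 4 weeks by its brighter probe (1429974_at), well above the array median. In control it was 11.43, 10.96, 11.46, 11.29 and 11.39, and with M+V it ran from 11.03 over a median of 11.65 to 11.95. All 5 control arrays thus lay below all 5 arrays of 4 weeks, whereas the M+V arrays spanned both. Control against 4 weeks gave a log2 fold change of -0.46 (SE 0.17, unadjusted p = 0.016, adjusted p = 0.407 from limma; exact permutation p = 0.00794, the smallest that 252 splits allow). M+V was at 0.31 against control (SE 0.16, adjusted p = 0.702) and at -0.14 against 4 weeks (SE 0.16, adjusted p = 0.737). Its other probe (1449871_at) gave -0.28, 0.18 and -0.11 in the same order, all with overlapping groups. The fibrocyte marker list, which holds Tbx18 itself, averaged 12.7 to 13.1 at 4 weeks, 12.7 to 12.8 in control and 12.6 to 13.1 with M+V.

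Eya4, a co-activator and phosphatase of the Eya family, had the smallest unadjusted p of the members in control against 4 weeks. That was by probe 1456665_at, which is described first for this reason. The brightest Eya4 probe (1442542_at), given further below, had overlapping groups in every comparison. By probe 1456665_at Eya4 was 10.09, 9.80, 9.70, 9.89 and 9.92 at 4 weeks and 9.26, 9.39, 9.55, 9.09 and 9.17 in control. With M+V it ran from 9.18 over a median of 9.25 to 9.76. Control and 4 weeks did not overlap, and of the M+V arrays replicates 1 and 3 reached the range of 4 weeks while the other 4 lay among the control arrays. This was a log2 fold change of -0.59 for control against 4 weeks (SE 0.14, unadjusted p = 0.00092, adjusted p = 0.143; exact permutation p = 0.00794) and -0.48 for M+V against 4 weeks (SE 0.14, unadjusted p = 0.00294, adjusted p = 0.117; exact permutation p = 0.0152). M+V against control was 0.10 (SE 0.14, adjusted p = 0.886). The 2 differences from 4 weeks share the same 5 arrays.

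This Eya4 probe passed the adjusted p when fewer dim probes were tested. Where only the 21407 probes at or over the array median throughout 1 group or more were tested, the adjusted p was 0.0363 for control against 4 weeks and 0.0365 for M+V against 4 weeks, and with the 10686 probes at or over the 75th percentile it was 0.0223 and 0.0231. With array weights it was 0.0359 for M+V against 4 weeks (log2 fold change -0.58). No other member probe passed the adjusted p in any comparison under any alternative run. With a block for the bioB level the values were -0.50 (adjusted p = 0.378) and -0.41 (adjusted p = 0.245). All 5 arrays of 4 weeks have the high level and only 1 control array does, so most of the age comparison cannot be told apart from it.

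The other Eya4 probes pointed the same way against 4 weeks. The brightest (1442542_at) was 11.11, 10.95, 11.07, 11.06 and 11.27 at 4 weeks, 10.55, 10.99, 11.14, 10.55 and 10.83 in control, and 10.78 to 11.09 with a median of 10.97 with M+V. It gave -0.28 for control against 4 weeks (SE 0.12, unadjusted p = 0.0403, adjusted p = 0.512) and -0.13 for M+V against 4 weeks, with overlap in both. Probe 1456647_a_at, under the array median throughout, gave -0.97 (SE 0.33, unadjusted p = 0.00966, adjusted p = 0.354) for control against 4 weeks and -0.41 for M+V. Against control, M+V was at 0.56 by this probe (SE 0.31, adjusted p = 0.725), which became 0.74 and passed the cutoffs without control replicate 2. Probe 1432461_at was dimmer still, and its groups overlapped widely, with control replicate 4 at the lowest possible value. In control against 4 weeks, 2 of the 16 member probes, both of Eya4, passed the study's cutoffs, beside 4.26% of all probes. In the same comparison 2 of 16, 1456665_at of Eya4 and the brighter probe of Tbx18, did not overlap, beside 3.34% of all.

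The count of members past the adjusted p was 0 of 16 in both comparisons with 4 weeks by limma, beside 0.704% of all probes for M+V and 0.211% for control. At an unadjusted p under 0.05 there were 4 member probes for M+V and 5 for control, beside 14.1% and 9.27% of all probes. The methods' t-test with adjustment on log2 values gave 0 member probes in both, where 107 and 58 of all probes passed. In M+V against 4 weeks, 0 of 16 member probes had groups that did not overlap, beside 2.73% of all. The median log2 fold change of the 9 genes was 0.01 for M+V against 4 weeks and -0.07 for control against 4 weeks, with 5 genes above 0 and 4 below in the first and 3 above and 6 below in the second. The medians over all probes were 0.01 and -0.00098.

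**Figure D4:**
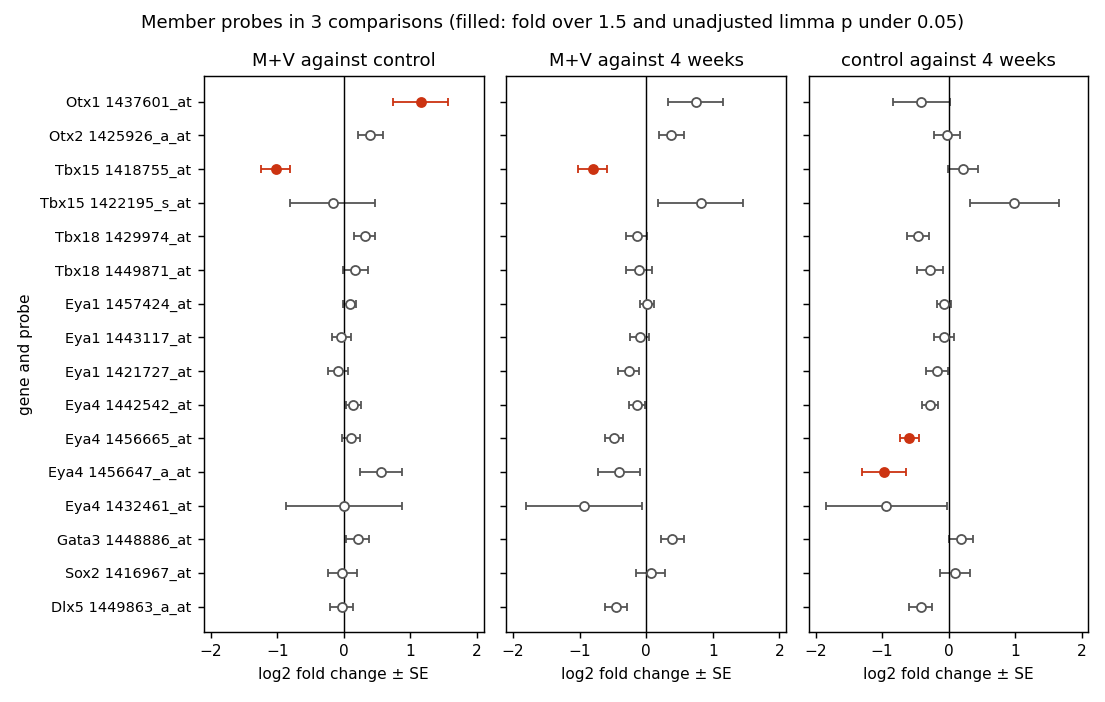
Log2 fold changes with their SE are plotted for all 16 member probes in the 3 comparisons, filled where the fold was over 1.5 and the unadjusted limma p under 0.05. Otx1 (1.16) and the brighter Tbx15 probe (-1.02) are filled in M+V against control, Tbx15 alone (-0.80) in M+V against 4 weeks, and the Eya4 probes at -0.59 and -0.97 in control against 4 weeks.

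The 250 bases before the transcription start are shown for Eya4 and Tbx18, the members with groups that did not overlap between control and 4 weeks. Neither of these groups was given MET or VPA, so the sequences are not tied to the drugs. DNA methylation sits at CG pairs, which are marked. They are the RefSeq sequences of mouse build GRCm38.p6, 5′ to 3′ on the minus strand, with CG pairs in capitals. They lie at chr10:23349944-23350193 for Eya4 (35 CG pairs) and at chr9:87731261-87731510 for Tbx18 (15 CG pairs).
Eya4: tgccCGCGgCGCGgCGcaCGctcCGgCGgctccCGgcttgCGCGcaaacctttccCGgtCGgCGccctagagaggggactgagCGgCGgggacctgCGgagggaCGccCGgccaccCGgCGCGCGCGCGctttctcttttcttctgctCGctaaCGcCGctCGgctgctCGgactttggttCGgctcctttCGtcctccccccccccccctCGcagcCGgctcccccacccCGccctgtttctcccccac
Tbx18: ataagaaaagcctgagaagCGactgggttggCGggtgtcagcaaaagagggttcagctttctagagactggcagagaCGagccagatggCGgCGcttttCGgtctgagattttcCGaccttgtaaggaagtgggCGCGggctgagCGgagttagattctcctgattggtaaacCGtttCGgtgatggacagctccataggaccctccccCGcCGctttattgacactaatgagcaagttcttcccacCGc
The promoter table gives windows of 300 bases, 250 before and 50 after the start, for Eya4, Gata3, Otx2, Sox2 and Tbx18, and these 9 windows held 6 (Otx2) to 36 (Eya4) CG pairs. The median over 32851 windows was 7, and 94.57% of them held at least 1 CG pair, which reads the same on both strands. The Eya4 window shown was taken because it holds the most CG pairs of that gene's windows. As many or more were in 6.23% of windows. Another Eya4 window held 28 CG pairs, and as many or more were in 14.2% of windows. For the Tbx18 window this share was 34.6%. Methylation was not measured, and these counts are a description of the sequence only. Otx1, Eya1, Tbx15 and Dlx5 have no window in that table.

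Eya1, a co-activator that acts from the otic placode onwards, was the steadiest member. By its brightest probe (1457424_at) it was 11.22, 11.13, 11.19, 11.13 and 11.29 at 4 weeks, 11.09, 11.11, 11.34, 10.96 and 11.10 in control, and 10.85 to 11.45 with a median of 11.22 with M+V. The groups overlapped fully. The log2 fold changes were 0.09 with M+V against control (SE 0.10), 0.01 with M+V against 4 weeks (SE 0.10) and -0.07 in control against 4 weeks (SE 0.11), with adjusted p from 0.872 to 0.969. Its other probes stayed between -0.26 and -0.04 in the 3 comparisons, and none passed the cutoffs. Eya1 and Eya4 are read by different oligonucleotides, so their levels were not set against each other.

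Gata3, a zinc finger factor of the placode, the sensory epithelium and the spiral ganglion, was 9.46, 9.29, 9.03, 9.54 and 9.29 at 4 weeks and 9.19, 9.52, 9.76, 9.63 and 9.43 in control. With M+V it ran from 9.36 over a median of 9.65 to 10.15. M+V replicates 2, 3 and 6 stood above every control array and every array of 4 weeks, and the other 3 lay within both groups. Gata3 gave a log2 fold change of 0.39 against 4 weeks (SE 0.17, unadjusted p = 0.0387, adjusted p = 0.323; exact permutation p = 0.0866), 0.21 against control (SE 0.17, adjusted p = 0.808) and 0.18 for control against 4 weeks (SE 0.18, adjusted p = 0.815). None was over 1.5-fold.

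Sox2, the factor that founds the sensory patches and marks supporting cells afterwards, was 9.94, 9.55, 9.87, 9.75 and 10.38 at 4 weeks and 10.22, 9.73, 10.02, 9.79 and 10.21 in control. With M+V it ran from 9.42 over a median of 9.97 to 10.70, so the M+V arrays held both the lowest and the highest value of the series. The log2 fold changes were -0.02 with M+V against control (SE 0.22), 0.07 with M+V against 4 weeks (SE 0.22) and 0.09 in control against 4 weeks (SE 0.23). The supporting cell list, which holds Sox2 itself (15 genes), averaged 9.40 to 9.76 at 4 weeks, 9.29 to 9.60 in control and 9.27 to 9.79 with M+V. The hair cell list (13 genes, 4 under the array median in every array) averaged 6.64 to 7.22, 6.70 to 7.08 and 6.75 to 7.05.

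Dlx5, a homeobox factor of the dorsal otic vesicle that is also active in bone-forming cells, was 9.08, 9.40, 9.19, 8.80 and 9.18 at 4 weeks. It was 8.61, 9.00, 8.65, 8.62 and 8.66 in control and ran from 7.95 over a median of 8.78 to 8.94 with M+V. Only control replicate 2 and 2 of the M+V arrays stood above the lowest array of 4 weeks. Dlx5 gave a log2 fold change of -0.42 for control against 4 weeks (SE 0.18, unadjusted p = 0.0296, adjusted p = 0.475; exact permutation p = 0.0159) and -0.45 for M+V against 4 weeks (SE 0.17, unadjusted p = 0.0164, adjusted p = 0.235; exact permutation p = 0.0195), neither over 1.5-fold. M+V against control was -0.03 (SE 0.17, adjusted p = 0.976). Without M+V replicate 1, the lowest array, M+V against 4 weeks was -0.31.

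Markers of bone and cartilage moved with it. The osteoblast list, 12 genes without Dlx5 such as Bglap and Col1a1, averaged 11.4 to 11.6 at 4 weeks, 10.4 to 10.8 in control and 10.3 to 10.8 with M+V, with no overlap between 4 weeks and either group, and 12 of 12 genes were below 0 in both comparisons with 4 weeks. By limma, 9 of the 12 fell past the adjusted p with M+V and 3 of 12 in control. The cartilage list (14 genes) averaged 9.02 to 9.29, 8.39 to 8.59 and 7.64 to 8.71. None of the genes of these lists was at the lowest possible value in any array. With the mean of both lists as a covariate, the Dlx5 log2 fold change was 0.37 for M+V (SE 0.32, unadjusted p = 0.267) and 0.32 for control (SE 0.29, unadjusted p = 0.300). Eya4 by 1456665_at was at -0.84 and -0.91 in the same fits. Tbx15 in M+V against 4 weeks was -0.70 with that covariate (SE 0.52, unadjusted p = 0.205), no longer past the cutoffs. Both list means separated 4 weeks from 12 weeks without overlap, so this covariate is nearly confounded with age. In these fits 5037 (M+V) and 6240 (control) of all probes passed the cutoffs, beside 2719 and 1918 without it. Whether bone content accounts for any of these values was not tested. With a block for the bioB level Dlx5 was at -0.64 in both comparisons and passed the cutoffs (unadjusted p = 0.00667 and 0.0115). All arrays of 4 weeks had the high level, so this fit leans on the 1 control and 2 M+V arrays at that level. M+V replicate 1, the lowest array for Dlx5, is among them.

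**Figure D5:**
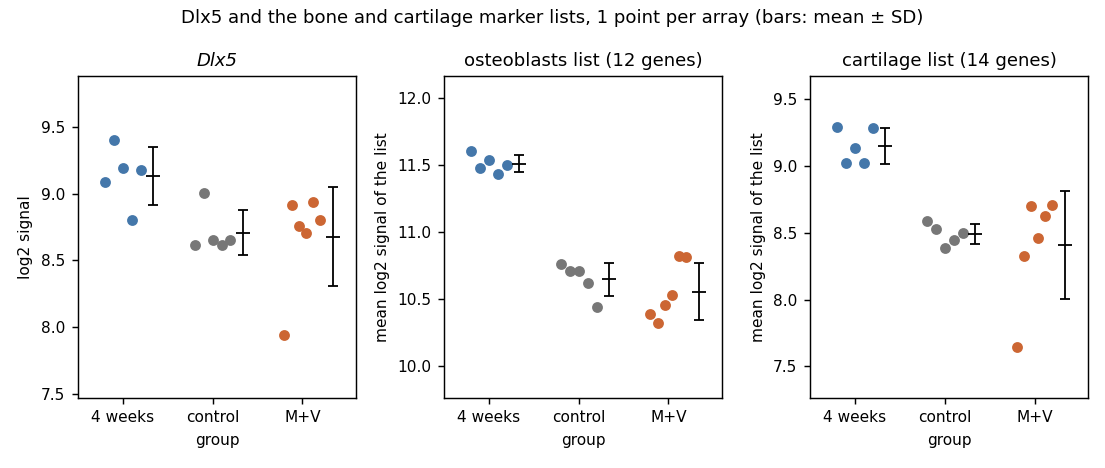
The log2 signal of Dlx5 and the mean log2 signal of the osteoblast (12 genes) and cartilage (14 genes) lists are plotted by array, each on an axis of 2.4 log2 units, with the mean ± SD. The osteoblast means at 4 weeks lie at 11.4 to 11.6, above all arrays of 12 weeks at 10.3 to 10.8, and Dlx5 shows a smaller step with overlap.

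Dlx6, the neighbour of Dlx5 in a shared gene cluster and an osteoblast marker above, was dim. It lay at 5.56 to 6.49 at 4 weeks, 4.26 to 5.23 in control and 2.96 to 5.94 with M+V. Control and 4 weeks did not overlap. The log2 fold change was -1.19 for control against 4 weeks (SE 0.49, unadjusted p = 0.0275, adjusted p = 0.469) and -1.12 for M+V against 4 weeks (SE 0.46, unadjusted p = 0.0292, adjusted p = 0.291).

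Of 51 other transcription factors with a known part in the ear, 47 had a probe. In M+V against control, 27 lay above 0 and 20 below (median log2 fold change 0.07), and 1 of 47 passed the study's cutoffs, Dlx2 at -0.79 (SE 0.25, unadjusted p = 0.00662, adjusted p = 0.682), a sister of Dlx5. In M+V against 4 weeks, 2 of 47 passed higher, Dach1 at 0.62 (adjusted p = 0.195) and Gbx2 at 0.68 (adjusted p = 0.156), and 2 lower, Dlx6 and Insm1 at -1.50 (adjusted p = 0.289). In control against 4 weeks, 1 passed higher, Barhl1 at 0.87 (adjusted p = 0.512), and 2 lower, Dlx6 and Dlx1 at -1.91 (adjusted p = 0.371). Over all probes, 3.54%, 6.04% and 4.26% passed the cutoffs in these 3 comparisons. Dach1 is a co-factor that works with Eya proteins, Gbx2 an opponent of Otx2 in patterning, and Insm1 and Barhl1 act in the making of hair cells and neurons. By limma 0 of the 47 passed the adjusted p in any of the 3 comparisons, with 7, 8 and 4 at an unadjusted p under 0.05. Of the 32 ligands and receptors of otic patterning with a probe (33 listed, such as Fgf, Bmp, Wnt and Notch pathway genes), 0 passed the cutoffs or limma's adjusted p in any comparison, with 1, 3 and 4 at an unadjusted p under 0.05 and medians of 0.02, -0.11 and -0.13. Of all probes, 7.25%, 14.1% and 9.27% had an unadjusted limma p under 0.05 in the same comparisons.

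The genes whose probe followed the members most closely over the 16 arrays were sought for Otx1 and Tbx15 among 19614 probes with 1 symbol and a mean at or above the array median. For Otx1 they were Tm2d2 (Pearson r = 0.80), Ssr4 (0.80), B9d1 (0.79), Ddx5 (0.78) and Cracr2b (0.77). For Tbx15 they were Cct6a (0.85), Ccnt2 (0.81), Larp4 (0.79), Kitl (0.77) and Mapk9 (0.77). These are the highest of many values, the points share the 3 groups and the 2 bioB levels, and no test was made.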

How the data were processed

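Total RNA from the whole cochlea of 1 male DBA/2J mouse per array was hybridised to the Affymetrix expression array for the whole mouse genome that the study's methods name. The authors extracted signals with GCOS and MAS5 (versions not given in the sources used here) and quantile-normalised them, and the deposited values are these signals on the log2 scale. Sorted values were identical in all 16 arrays (largest difference 0), so a shift of all genes at once could not be seen. A signal below 1 (0.869% of values) was raised to 1. Of 45101 probes, 64 controls were left out, and the others were tested without a filter, since several members are dim. The methods' present calls were not used here. In the annotation 34958 probes have 1 symbol, 932 have several and 9211 have none.

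Group means were modelled over all 16 arrays in R 4.3.3 with limma 3.58.1 (lmFit, contrasts.fit and eBayes, checked on simulated data). P-values are two-sided, were adjusted by Benjamini-Hochberg over all 45037 probes and were called under 0.05. The cutoffs of the study, more than 1.5-fold with p below 0.05 before adjustment, were applied as well, and single probes were tested by exact permutation of arrays. Precision is limited by 5 or 6 arrays per group. Same-numbered arrays of different groups did not deviate together (median correlation 0.01 in 15 pairs, 0 over 0.1) and were not treated as pairs.

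Every member but Eya4 is reported first from its probe with the highest mean over all arrays, with its other probes beside it. Eya4 is described first from 1456665_at, which had the smallest unadjusted p of the member probes in control against 4 weeks. From the lists of other otic genes, up to 4 past the cutoffs with the smallest p are named. The members and lists were chosen with earlier results of these data known. Alternatives were percentile filters, cyclic loess, centring, log2(signal + 32), a variance trend, the methods' t-test, only the compared groups, array weights, blocks for the replicate number and the bioB level, cell type means as covariates, other probes and leaving out each array. Covariates for skeletal muscle, fat cells and the Gapdh 3'/5' ratio were added after seeing the data.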

Additional observations from a re-analysis of the deposited data

Results flagged for a closer look

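Each member probe was checked in each group for an array far from the rest, by the gap to its nearest neighbour relative to the group's range. Of 48 groups checked, 3 had such an array, and chance alone gives about 1 in 20. Dlx5 was at 9.00 on the log2 scale in control replicate 2, where the next control array was at 8.66, and at 7.95 in M+V replicate 1, where the next M+V array was at 8.70. That M+V array also had the lowest mean of the cartilage markers, 7.64, and of the red blood cell markers, 4.32, and whether these are related was not tested. The dimmest Eya4 probe (1432461_at) was at 0 in control replicate 4, the lowest possible value, beside 3.95 in the next control array.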

How the results depend on the processing

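Of the values of single members under the alternatives, 915 kept their side of the study's cutoffs (880 with the same direction and 35 with the other, all of differences reported at 0.41 or less in size), 7 came to pass the cutoffs, 3 no longer passed, 4 of members not past the cutoffs moved, and 1 reversed: Tbx15 in M+V against 4 weeks, 0.82 by its dim probe 1422195_s_at against -0.80. Some of these alternatives cannot change a log2 fold change, only its p. They are the filters, the variance trend, the t-test on log2 values, only the compared groups, and leaving out an array of the third group. Part of the count with the same direction was thus fixed in advance. Otx1 in M+V against control was 1.16 and no longer past the cutoffs by the methods' t-test on linear signals. The count of member probes past the study's cutoffs in M+V against control, 2, became 0 with the filter at the 50th or the 75th percentile, since neither Otx1 nor Tbx15 was then tested, 1 by the methods' t-test on linear signals, 3 among the arrays with a low bioB level (the dim Tbx15 probe at -0.89 added), and 2 to 3 leaving out 1 array. In M+V against 4 weeks, 1 became 0 with either filter, 3 with the bioB level as a block (Otx1, Tbx15 and Dlx5) and 1 to 2 leaving out 1 array (2 without 4 weeks replicate 4 or M+V replicate 4). In control against 4 weeks, 2 became 0 with log2(signal + 32). It was 1 with either filter, the methods' t-test on log2 values or linear signals, array weights, the bioB level as a block, or the osteoblast and cartilage, skeletal muscle, adipocyte or Gapdh 3'/5' covariate, and 1 to 2 leaving out 1 array (1 without 4 weeks replicate 1 or 5 or control replicate 4 or 5). The count past the adjusted p, 0 in every comparison, became 1 with the filter at the 50th or 75th percentile in both comparisons with 4 weeks and 1 with array weights in M+V against 4 weeks, each time Eya4 by 1456665_at. With a replicate block the counts past the cutoffs were 2, 1 and 2 in the 3 comparisons and Otx1 and Tbx15 against control were 1.11 and -1.04, so the block changed no call of a member. Where no cause is named, the cause was not tested. Members near or under the array median (Otx1, both Tbx15 probes and the dim Eya4 probes) are measured close to background, where the deposited table gives no detection call.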
